A study of Mus musculus with 9 samples.

Results

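Resident Kupffer cell markers, 8 genes of the 27179 in the deposited table, were examined in the liver of aged mice after Ccnd1 was targeted in hepatocytes. The genes were taken by symbol: Clec4f, Vsig4, Cd5l, Timd4, Marco, Cd163, Folr2 and Adgre1. The table lists all 8, and all 8 passed the filter on low values, a library mean of 10 or more normalized counts. Normalized counts are reads per gene divided by 1 size factor per library. Poly(A) RNA was sequenced from flash-frozen pieces of 1 liver lobe (m-lobe) of 9 C57BL/6J mice of wild-type genotype on normal chow. At 17 months of age every mouse was injected retro-orbitally with 3e11 vector genomes of AAV8, and the lobe was taken 3 weeks later. The vector carried the compact nuclease saCas9, driven in hepatocytes by the TBG promoter, and a U6-driven guide RNA. The guide was directed at Rosa26, a neutral cutting control, in 4 mice (sgRosa26, libraries A to D) and at Ccnd1, which encodes the cell cycle driver cyclin D1, in 5 mice (sgCcnd1, libraries E to I). All 9 mice therefore carried vector, nuclease and a cutting guide. The letters only name the libraries, in column order. The series title puts the question as one of inflammatory signalling after loss of Ccnd1 in hepatocytes.

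Kupffer cells are the resident macrophages of the liver. They sit in the sinusoids, where they take up bacteria, complement-coated particles, dying cells and old red cells from the blood. Most are laid down before birth and renew themselves locally, and recruited monocytes can enter an emptied niche and acquire the same markers with time. Signals from hepatocytes, stellate cells and sinusoidal endothelial cells hold their identity, through the receptor of colony-stimulating factor 1, Notch, the transforming growth factor beta family and the liver X receptor. The TBG promoter is not a Kupffer cell promoter, so the nuclease was directed at another cell type than the one that carries these markers. The markers differ in how far they are restricted to the cell. Clec4f is close to Kupffer-specific in the mouse liver, whereas Adgre1 and Folr2 are also carried by other macrophages.

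The promoters of 4 markers are given because 2 of these genes, Clec4f and Cd5l, were among the 3 markers that varied least between animals and the other 2, Marco and Timd4, were those that varied most. RefSeq promoter entries (build GRCm38.p6) matched 7 of the 8 genes, with 8 entries since Folr2 has a pair. Each sequence is the 250 bases before a transcript start, 5′ to 3′ on the gene's strand. Capitals mark AGGAAG or its reverse complement CTTCCT, a core bound by PU.1 and other ETS factors.
Clec4f (chr6:83656117-83656366, minus strand): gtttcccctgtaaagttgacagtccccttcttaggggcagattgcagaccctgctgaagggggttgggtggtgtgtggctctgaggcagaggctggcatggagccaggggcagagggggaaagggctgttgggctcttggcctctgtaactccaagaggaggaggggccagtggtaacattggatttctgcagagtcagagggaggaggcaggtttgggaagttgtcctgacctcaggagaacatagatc
Cd5l (chr3:87357631-87357880, plus strand): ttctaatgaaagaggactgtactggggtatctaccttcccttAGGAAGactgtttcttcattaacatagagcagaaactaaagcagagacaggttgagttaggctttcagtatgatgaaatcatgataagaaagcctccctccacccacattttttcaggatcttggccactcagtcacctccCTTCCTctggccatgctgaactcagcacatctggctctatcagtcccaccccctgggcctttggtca
Marco (chr1:120505025-120505274, minus strand): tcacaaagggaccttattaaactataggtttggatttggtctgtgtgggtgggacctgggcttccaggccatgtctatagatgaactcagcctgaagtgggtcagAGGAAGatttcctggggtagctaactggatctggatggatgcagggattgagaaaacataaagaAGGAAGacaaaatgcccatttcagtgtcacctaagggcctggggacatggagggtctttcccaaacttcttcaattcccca
Timd4 (chr11:46810549-46810798, plus strand): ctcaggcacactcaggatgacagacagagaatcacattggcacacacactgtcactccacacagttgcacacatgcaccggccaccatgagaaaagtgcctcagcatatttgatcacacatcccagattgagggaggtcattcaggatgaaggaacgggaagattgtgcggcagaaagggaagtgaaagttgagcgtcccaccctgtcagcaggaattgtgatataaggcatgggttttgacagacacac
The core was found in 4 of the 8 promoter entries, which belong to Cd5l, Marco and Folr2, and in 29.5% of all 32851 promoter entries of the same length. Cd5l and Marco had 2 copies each, and Clec4f and Timd4 had none in this window. The MAF half-site TGCTGA or TCAGCA was found in 5 of 8 entries (16.1% of all), with 2 copies in Cd5l, 2 in Timd4 and 1 in Clec4f. The RBPJ core TGGGAA or TTCCCA was found in 2 of 8, Clec4f and Marco (21.6% of all), and the nuclear receptor half-site AGGTCA or TGACCT in 2 of 8, Clec4f and Timd4 (14.0% of all). The interferon response element was searched as an exact pair of its GAAA repeats spaced by 2 bases on either strand, and was in 0 of 8 and in 2.98% of all. In the Cd5l promoter the 2 MAF half-sites lay 54 to 49 and 46 to 41 bases before the start. These letter matches are descriptions and were not linked to the expression values.

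The libraries held 10.8 to 20.2 M reads assigned to genes (M, mega). Ccnd1 was at 48.6% of the control level in sgCcnd1 (log2 fold change -1.03, adjusted p = 0.0116 by limma). It was the only gene of 12993 tested that passed an adjusted p under 0.05 in limma, a share of 0.00770%. With B, D, F, H or I left out it missed that threshold (adjusted p from 0.0559 to 0.0852 by limma). Library H of sgCcnd1 stood apart from the other 8 in its Y-linked genes, with 2.00 normalized counts of Ddx3y against 810 to 1154. Eif2s3y, Kdm5d and Uty were at 0 in H and in no other library. The labels give no sex, so a part of sex in the values of H cannot be told apart from its other differences. Library E of sgCcnd1 lay nearest to the controls in the mean level of the pan-macrophage genes described further on. Hepatocyte transcripts dominated every library, as in whole liver: 10 hepatocyte genes summed to between 1649550 and 2126400 normalized counts, against 1844 to 2786 for the 8 Kupffer cell markers.

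**Figure D1:**
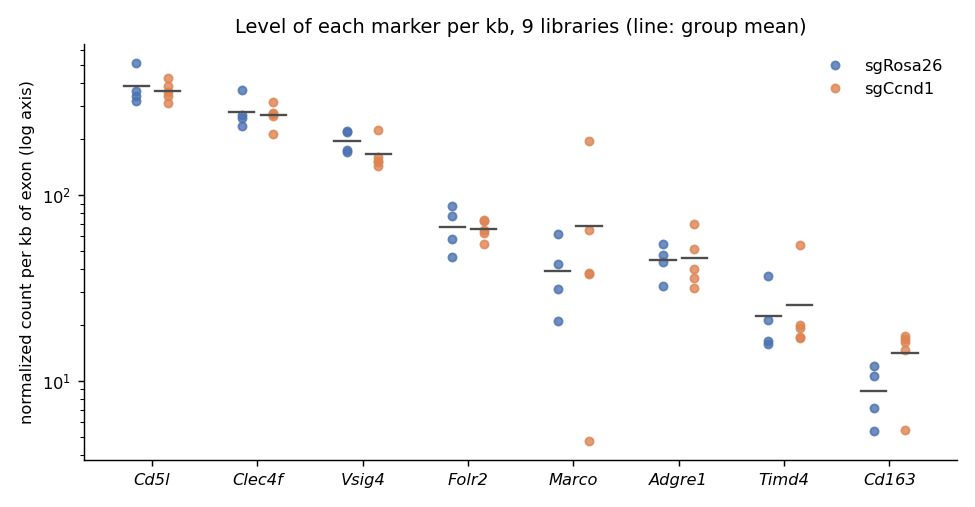
Level of each marker in normalized counts per kb of exon (log axis) in 4 sgRosa26 and 5 sgCcnd1 libraries, with a line at each group mean. Cd5l, Clec4f and Vsig4 lie highest, Cd163 lies lowest, and Marco spans from 4.75 to 195.

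Divided by the length of the exons of each gene, the markers covered a wide range of levels. Over the 9 libraries Cd5l was highest at 374 ± 62.8 normalized counts per kb of exon (SD, n = 9), followed by Clec4f at 275 ± 44.5 and Vsig4 at 180 ± 33.1. Folr2 was at 66.3 ± 12.6 per kb, Marco at 55.3 ± 55.7, Adgre1 at 45.2 ± 12.1, Timd4 at 24.2 ± 12.8 and Cd163 at 11.7 ± 4.83. Within a library Cd5l was above Clec4f, and Clec4f above Vsig4, in 9 of 9 animals, although the ranges over animals overlapped. The only neighbours in this order with no overlap were Vsig4 and Folr2. Neighbours next to Marco did not differ beyond its spread: Folr2 was above Marco in 7 of 9 libraries and Marco above Adgre1 in 5 of 9. Folr2 was above Adgre1 in 8 of 9, with ranges that overlapped. Timd4 was above Cd163 in 9 of 9 libraries.

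None of the 8 markers differed between sgCcnd1 and sgRosa26 beyond the spread between animals. The adjusted p in limma ranged from 0.514 to 0.998, and 0 of 8 had an unadjusted p under 0.05, a threshold that 11.0% of all genes tested passed. The groups overlapped in 8 of 8 markers, where they did not overlap in 3.89% of all genes tested (1.92% higher and 1.97% lower). Of the log2 fold changes, 4 were above 0 and 4 below, where 47.1% of all genes were below, with a median of 0.0014 beside 0.014 for all genes tested. The count models gave 0 calls among the markers as well, with edgeR (0.00770% of all genes called) and with DESeq2 (0.816% called, 0.267% higher and 0.549% lower). Without library E, 2 of 8 had an unadjusted p under 0.05, 1 higher (Cd163) and 1 lower (Vsig4), and 0 passed the adjustment. Without library H, 3 of 8 were higher and 5 lower, and 0 passed either threshold. The share of all genes under the unadjusted threshold is not given for fits with a library left out. Counts from those fits, here and below, thus cannot be set against such a share. In a bulk sample, fewer Kupffer cells and less of a transcript per cell cannot be told apart. Missing the threshold does not show that the levels were alike, so the intervals below state which changes these 9 animals leave possible.

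**Figure D2:**
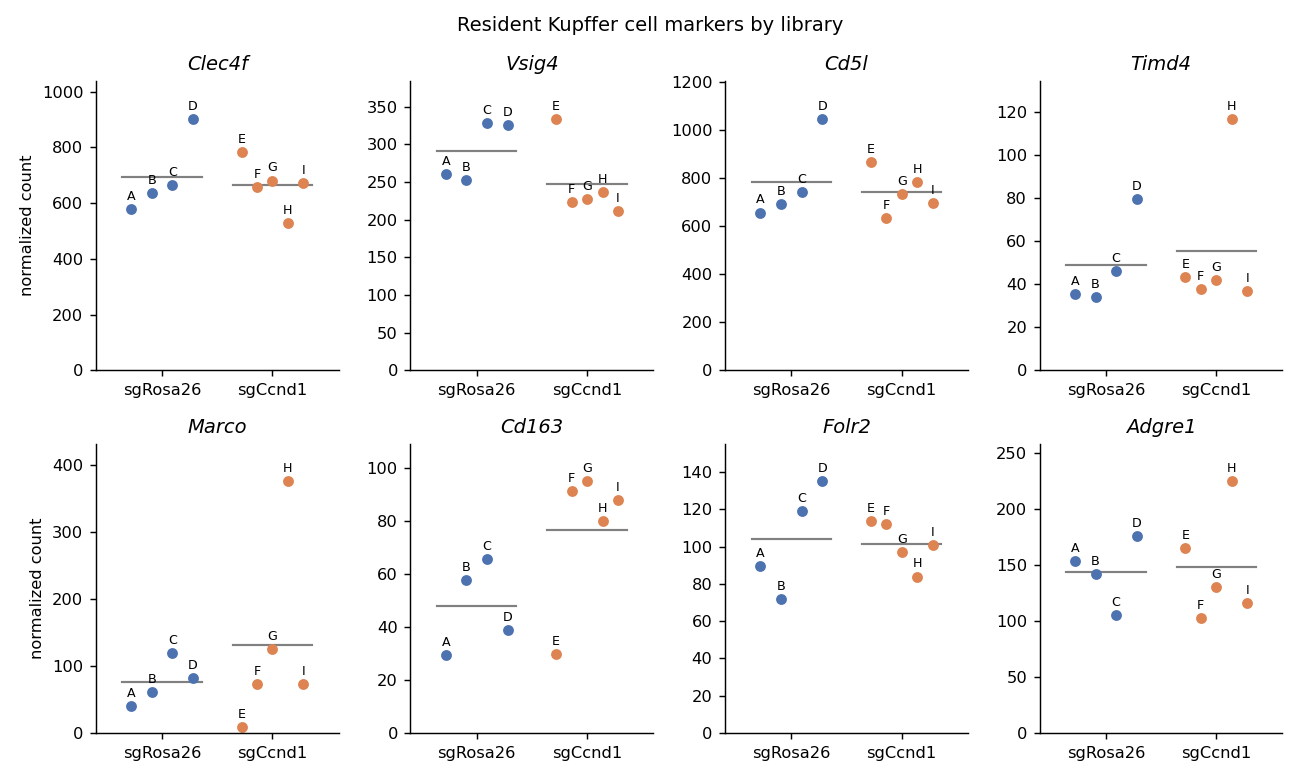
Normalized counts (linear axes from 0) of the 8 markers, with each point a library named by its letter and a line at each group mean. The groups overlap in every panel, and library H is highest for Timd4, Marco and Adgre1.

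Clec4f and Vsig4 are cell-surface receptors. Clec4f (Entrez 51811, chr6:83644542-83656116) encodes a C-type lectin that binds galactose-bearing sugars. It was at 578, 638, 664 and 903 normalized counts in libraries A to D and at 784, 657, 681, 528 and 673 in libraries E to I. Control library D was the highest of the 9 and sgCcnd1 library H the lowest, and 4 of 5 sgCcnd1 libraries lay within the control range. The mean was 696 ± 143 in sgRosa26 (SD, n = 4) and 665 ± 91.5 in sgCcnd1 (SD, n = 5). The limma estimate on the log2 scale was -0.056 (SE 0.14, adjusted p = 0.913). Its 95% interval ran from 0.782 to 1.18 times the control level.

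Vsig4 (Entrez 278180, chrX:96247201-96293438) encodes the complement receptor CRIg, which takes up particles coated with C3 fragments. It was at 261, 252, 328 and 325 normalized counts in A to D and at 334, 224, 227, 237 and 211 in E to I. Libraries F to I were the 4 lowest of the 9, all below the lowest control, whereas E was the highest. The group means were 292 ± 40.8 and 247 ± 49.6 normalized counts, 84.5% of the control level. On the log2 scale sgCcnd1 differed from sgRosa26 by -0.25 (SE 0.14, adjusted p = 0.536 by limma), with an exact permutation p = 0.159. The interval ran from 0.679 to 1.04 times the control level. Without library E the log2 fold change was -0.36 (adjusted p = 0.231 by limma), and without H it was -0.24.

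Cd5l and Timd4 serve the handling of dying cells. Cd5l (Entrez 11801, chr3:87357881-87371074) encodes a secreted scavenger receptor cysteine-rich protein known as AIM, which blocks macrophage death and is induced by the liver X receptor. It was at 657, 693, 741 and 1047 normalized counts in A to D and at 868, 634, 733, 784 and 695 in E to I. As for Clec4f, D was the highest library, and 4 of 5 sgCcnd1 libraries lay within the control range. The group means were 784 ± 178 and 743 ± 88.9 normalized counts. In limma the groups differed on the log2 scale by -0.061 (SE 0.14, adjusted p = 0.903), and the interval ran from 0.781 to 1.18 times the control level. Without D the sign turned, with 0.076 for Clec4f and 0.086 for Cd5l on the log2 scale. Clec4f was also above 0 without H (0.024). Cd5l was at -0.083 without H and -0.12 without E.

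Timd4 (Entrez 276891, chr11:46810786-46844333) encodes TIM-4, a receptor for phosphatidylserine on dying cells and a marker of long-lived resident Kupffer cells. It was at 35.7, 34.2, 46.0 and 79.6 normalized counts in A to D and at 43.5, 37.6, 42.1, 117 and 36.9 in E to I. Library H stood at 117 against 36.9 to 43.5 in the rest of its group, and D stood above the other controls. The group means were 48.9 ± 21.2 and 55.4 ± 34.5 normalized counts, and limma gave a log2 fold change of 0.10 (SE 0.34, adjusted p = 0.936). The interval, from 0.641 to 1.80 times the control level, is wide. The log2 fold change was -0.20 without H, -0.015 without A and -0.034 without B.

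Marco and Cd163 are scavenger receptors with cysteine-rich domains. Marco (Entrez 17167, chr1:120474538-120505024) encodes a class A scavenger receptor that binds bacteria and particles. It was at 40.6, 60.5, 119 and 81.6 normalized counts in A to D and at 9.15, 73.4, 125, 376 and 72.4 in E to I. Both the lowest and the highest of the 9 libraries belonged to sgCcnd1, 41.1-fold apart. The low value of E rests on 12 reads, whose exact 95% Poisson interval is 4.73 to 16.0 normalized counts. The high value of H rests on 376 reads, with an interval of 339 to 416, so counting error does not span the gap. The group means were 75.5 ± 33.6 and 131 ± 143 normalized counts. By limma the log2 fold change came to 0.11 (SE 0.76, adjusted p = 0.969), and the interval ran from 0.343 to 3.39 times the control level. The count models put it at 0.77 (edgeR, adjusted p = 0.720) and 0.79 (DESeq2, adjusted p = 0.832) with all 9 libraries. In limma it was 0.84 without E, -0.46 without H, -0.15 without A and -0.070 without G, so single libraries turned its sign. The standard deviation of Marco within groups, 1.49 on the log2 scale, lay at percentile 99.8 of all genes tested, above Timd4 (0.63, percentile 96.8) and Cd163 (0.63, percentile 96.6). For Clec4f, Cd5l and Vsig4 it was 0.24, at percentiles 61.8, 61.3 and 61.5, so these markers too varied more than most genes.

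Cd163 (Entrez 93671, chr6:124304636-124330529) encodes the receptor that clears haemoglobin bound to haptoglobin. It was at 29.5, 57.9, 65.7 and 38.8 normalized counts in A to D and at 29.7, 91.3, 95.0, 80.0 and 88.0 in E to I. Libraries F to I were the 4 highest of the 9, and E lay beside the lowest control. The group means were 48.0 ± 16.7 and 76.8 ± 26.9 normalized counts, the largest difference relative to its error among the 8 markers. On the log2 scale sgCcnd1 differed from sgRosa26 by 0.63 (SE 0.34, adjusted p = 0.514 by limma), with an exact permutation p = 0.159, and the interval ran from 0.931 to 2.56 times the control level. Without E the log2 fold change was 0.94 (adjusted p = 0.147 by limma), without A it was 0.42 (0.626) and without H it was 0.59 (0.710). It was above 0 in all 21 alternatives that gave a value, and its adjusted p was at least 0.147 in each of them.

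Folr2 and Adgre1 are shared with other tissue macrophages. Folr2 (Entrez 14276, chr7:101839988-101857190) encodes folate receptor beta. It was at 89.8, 71.9, 119 and 135 normalized counts in A to D and at 114, 112, 96.9, 84.0 and 101 in E to I, and 5 of 5 sgCcnd1 libraries lay within the control range. The limma estimate on the log2 scale was -0.0018 (SE 0.18, adjusted p = 0.998), and the interval ran from 0.764 to 1.31 times the control level. Adgre1 (Entrez 13733, chr17:57358581-57483529) encodes the adhesion G protein-coupled receptor known as F4/80. It was at 154, 142, 105 and 176 normalized counts in A to D and at 165, 103, 130, 225 and 116 in E to I. Library H was the highest and library F the lowest, so sgCcnd1 lay on both sides of the controls. In limma the groups differed on the log2 scale by 0.0046 (SE 0.22, adjusted p = 0.997), and the interval ran from 0.724 to 1.39 times the control level. Without H it was -0.16 for Adgre1 and 0.063 for Folr2. Other single libraries also turned these signs, C, D or G for Folr2 and C or E for Adgre1.

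**Figure D3:**
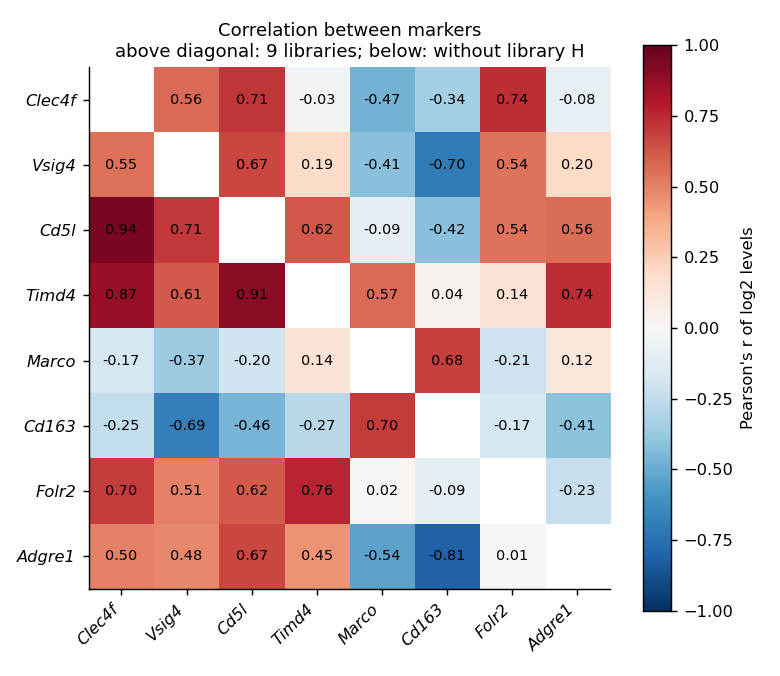
Pearson's r between the log2 levels of each pair of markers, over 9 libraries above the diagonal and without library H below it. Clec4f with Cd5l is at 0.71 and 0.94, and Cd163 is negative with Vsig4 in both.

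The markers did not vary as 1 block between animals. Over the 28 pairs, Pearson's r of the log2 levels in 9 libraries ranged from -0.70 to 0.74 with a median of 0.13, and 16 pairs were above 0. Of the 28, 6 had an unadjusted exact permutation p under 0.05, and 0 passed after Benjamini-Hochberg adjustment over the 28 pairs. Clec4f followed Folr2 (r = 0.74, Spearman's rho = 0.75, exact permutation p = 0.0234 and 0.0255, adjusted p = 0.192 and 0.238). It also followed Cd5l (r = 0.71, rho = 0.55, exact permutation p = 0.0370 and 0.133, adjusted p = 0.192 and 0.459). Without D and H, the libraries farthest from the median of Clec4f, r was 0.50 with Folr2 and 0.84 with Cd5l. Vsig4 and Cd163 ran opposite to each other (r = -0.70, rho = -0.77, exact permutation p = 0.0358 and 0.0214, adjusted p = 0.192 and 0.238), and r was -0.78 without C and E. Marco and Cd163 ran together (r = 0.68, rho = 0.63, exact permutation p = 0.0268 and 0.0760, adjusted p = 0.192 and 0.355), with r = 0.62 without E and H. The remaining pairs under the unadjusted threshold were Timd4 with Adgre1 and Vsig4 with Cd5l. Timd4 and Adgre1 had the smallest p (r = 0.74, rho = 0.43, exact permutation p = 0.0195 and 0.250, adjusted p = 0.192 and 0.581), but r was -0.17 without D and H, so the relation rests on those libraries. For Vsig4 and Cd5l r was 0.67 (rho = 0.57, exact permutation p = 0.0411 and 0.121, adjusted p = 0.192 and 0.459), and 0.77 without C and E. With each group's mean removed, the median r over pairs was 0.13.

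Library H had a large part in these relations. Without it, an alternative chosen after the data were seen, the median r was 0.46 and 7 pairs had an unadjusted p under 0.05. Cd5l correlated with Clec4f at 0.94 (rho = 0.86, exact permutation p = 0.00317 and 0.0107, adjusted p = 0.0840 and 0.150). Timd4 correlated with Clec4f at 0.87 without H (rho = 0.79, exact permutation p = 0.00920 and 0.0279, adjusted p = 0.0859 and 0.195) and at -0.029 with it. Cd5l and Timd4 stood at 0.91 without H (rho = 0.81, exact permutation p = 0.00600 and 0.0218, adjusted p = 0.0840 and 0.195) and at 0.62 with it. Timd4 and Folr2 had the highest rank correlation without H (r = 0.76, rho = 0.93, exact permutation p = 0.0384 and 0.00223, adjusted p = 0.153 and 0.0625), against r = 0.14 with it. Cd163 and Adgre1 ran opposite without H (r = -0.81, rho = -0.74, exact permutation p = 0.0238 and 0.0458, adjusted p = 0.133 and 0.243), against r = -0.41 with it. Again 0 of the 28 pairs passed the adjustment. H had the highest Timd4, Marco and Adgre1 of the 9 libraries together with the lowest Clec4f.

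**Figure D4:**
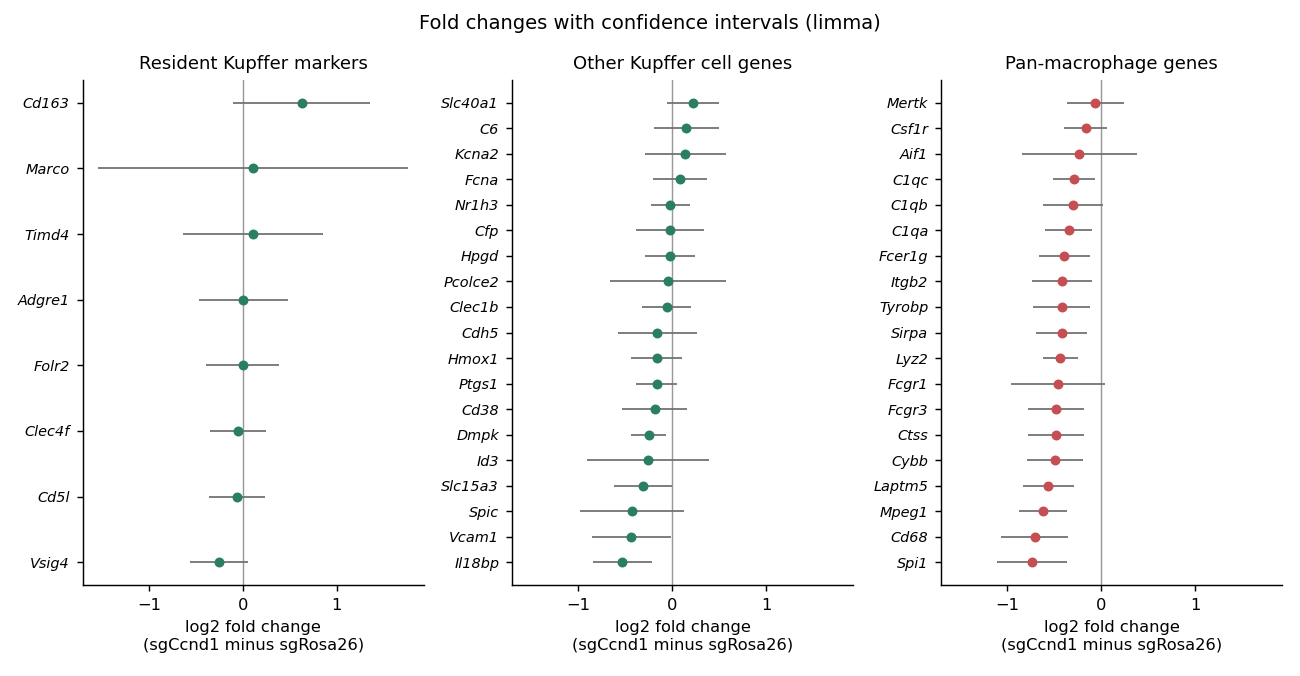
Log2 fold change of sgCcnd1 over sgRosa26 with its 95% interval from limma, for the 8 markers, 19 other Kupffer cell genes and 19 of the 20 pan-macrophage genes. The markers lie on both sides of 0, and the 19 pan-macrophage genes drawn lie below 0.

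Other genes of the Kupffer cell programme were given by a list of 20, of which 19 were tested. Xlr, at a mean of 1.51 and 2.77 normalized counts, fell under the filter. None passed the adjustment in limma, 4 were higher and 15 lower, and the median log2 fold change was -0.16. At an unadjusted p under 0.05, 4 of 19 were lower, where 5.74% of all genes tested were, and 0 were higher. Il18bp, an inhibitor of interleukin 18, was at 202 ± 22.6 in sgRosa26 and 141 ± 25.8 normalized counts in sgCcnd1 (log2 fold change -0.53, adjusted p = 0.255 by limma), with 5 of 5 sgCcnd1 libraries below all controls. Without library E 6 of 19 were higher and 13 lower, without G the median of the list was -0.052, and without H 2 of 19 were lower at an unadjusted p under 0.05. Il18bp was the 1 gene of the list whose groups did not overlap, against 1.97% of all genes tested in that direction. Dmpk, a kinase, was at -0.25 (adjusted p = 0.336 by limma) and the adhesion molecule Vcam1 at -0.43 (0.437) on the log2 scale.

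Genes of this list with known Kupffer cell roles are given next and were singled out after their values were seen. The bacteria-binding ficolin Fcna was at 359 ± 76.5 and 375 ± 26.6 normalized counts (log2 fold change 0.086, adjusted p = 0.847 by limma). The iron exporter Slc40a1, which hepatocytes also carry, was at 2028 ± 287 and 2370 ± 378 (0.22, 0.536). Among transcription factors of Kupffer cell identity, Nr1h3, the liver X receptor alpha, was at -0.020 (adjusted p = 0.957 by limma), Id3 at -0.26 (0.778) and Spic at -0.43 (0.559) on the log2 scale.

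**Figure D5:**
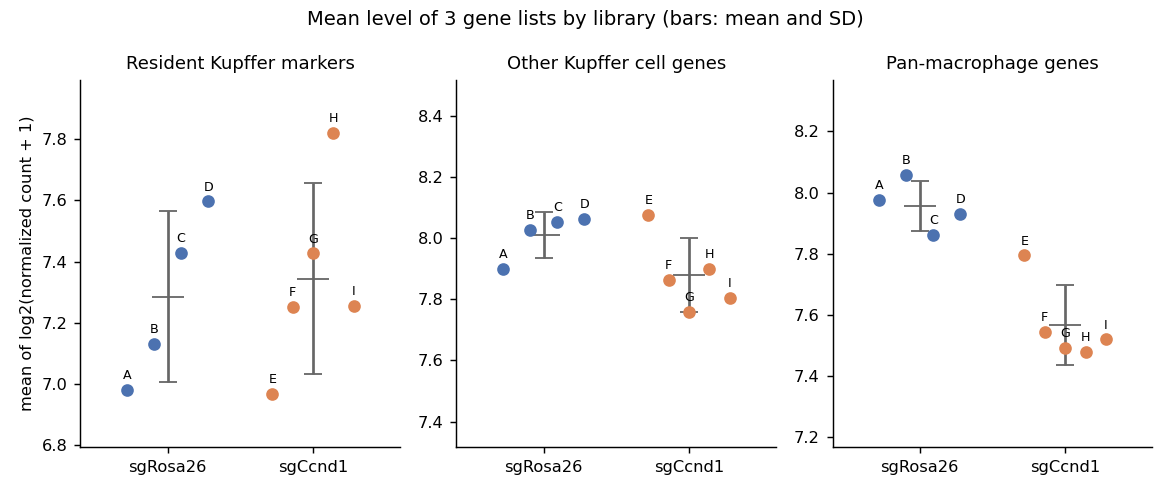
Mean of log2(normalized count + 1) over the genes of 3 lists in each library, with the group mean and SD as bars. The resident markers overlap between groups, and the pan-macrophage genes do not (7.48 to 7.79 in sgCcnd1 against 7.86 to 8.06 in sgRosa26).

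Genes carried by macrophages in general were set beside the resident markers. The pan-macrophage list of 20 genes, all tested, had 19 members lower and 1 higher, with a median log2 fold change of -0.42 beside 0.014 for all genes tested. None passed the adjustment in limma. At an unadjusted p under 0.05, 14 of 20 were lower (5.74% of all genes tested). In 9 of 20 all sgCcnd1 libraries lay below all controls, where 1.97% of all genes tested did so. DESeq2 called 5 of 20 lower (0.549% of the genes it tested): Mpeg1, Lyz2, Laptm5, Cd68 and Spi1. It called 2 of 20 without library H. In limma 18 of 20 were lower without H and 19 of 20 without E, with 14 and 17 at an unadjusted p under 0.05. The pore-forming protein gene Mpeg1 was at 1433 ± 199 and 933 ± 122 normalized counts (log2 fold change -0.62, adjusted p = 0.225 by limma), and the lysozyme gene Lyz2 at 991 ± 69.9 and 733 ± 60.7 (-0.44, 0.225). Laptm5, a lysosomal membrane protein gene, was at -0.56 on the log2 scale (adjusted p = 0.227 by limma). Earlier results on these libraries had shown leukocyte genes to be low in sgCcnd1, so the list is not independent evidence of its direction.

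The mean log2 level of the 8 resident markers was 7.28 ± 0.28 in sgRosa26 and 7.34 ± 0.31 in sgCcnd1, a difference of 0.060. That of the pan-macrophage genes was 7.96 ± 0.082 and 7.57 ± 0.13, a difference of -0.39. Resident markers minus pan-macrophage genes stood at -0.99, -0.93, -0.43 and -0.33 in A to D and at -0.83, -0.29, -0.064, 0.34 and -0.27 in E to I. Libraries F to I lay above all controls and E lay among them. The group means of this difference were -0.67 ± 0.34 and -0.22 ± 0.42, which is 0.45 apart. Whether the lists respond differently was not tested, since the markers were chosen with results of these data known.

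Signals and sensors that maintain Kupffer cells gave no call in limma among 19 genes tested of 20, with 5 higher, 14 lower and a median log2 fold change of -0.14. At an unadjusted p under 0.05, 2 were higher (5.22% of all genes tested) and 4 lower (5.74%), and edgeR called 0. The counts were 0 and 5 without library E, and 1 and 3 without H. Bmp10 fell under the filter. Csf1, a growth factor ligand of macrophages, was at 250 ± 48.4 and 177 ± 25.1 normalized counts (log2 fold change -0.49, adjusted p = 0.292 by limma), and 4 of 5 sgCcnd1 libraries lay below all controls. Its values were 298, 285, 212 and 204 in A to D and 211, 173, 165, 145 and 190 in E to I. The receptor gene Notch1 was at -0.49 (adjusted p = 0.279 by limma) and Spi1, which encodes PU.1, at -0.74 (0.245) on the log2 scale. In each, 5 of 5 sgCcnd1 libraries lay below all controls, as in 1.97% of all genes tested. DESeq2, which called 0.549% of its genes lower, called Spi1 (adjusted p = 0.0325) and not Csf1 (0.119) or Notch1 (0.0970). Without library H it did not call Spi1 either (0.149).

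Scavenger and efferocytosis receptors outside the 8 markers, 12 tested of 14, had a median log2 fold change of -0.050, with 5 higher and 7 lower. In limma, edgeR and DESeq2 0 were called, and 1 was lower at an unadjusted p under 0.05 (5.74% of all genes tested), or 2 without library E. Among those at a mean of at least 50, Axl was lowest in p (-0.41 on the log2 scale, adjusted p = 0.266 by limma), followed by Stab1 (-0.23, 0.503) and Msr1 (-0.25, 0.583). Genes of haem and iron recycling, which Cd163 feeds, had a median of -0.027 over 13 tested, with 6 higher and 7 lower. Of these, limma and edgeR called 0, DESeq2 called 1 (Nfe2l2, where it called 0.816% of all genes), and 1 was higher (5.22% of all) and 2 were lower (5.74%) at an unadjusted p under 0.05. Without library E, 2 were higher and 2 lower. Nfe2l2, a transcription factor of the oxidative stress response, was at -0.45 (adjusted p = 0.135 by limma), the lysosomal metal transporter Slc11a1 at -0.58 (0.253) and the ferritin gene Ftl1 at 0.51 (0.344) on the log2 scale.

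Markers of other liver and blood cells were read in the same fit, and 0 genes of these lists passed in limma. With all 9 libraries, an unadjusted p under 0.05 with a lower level was found in 5.74% of all genes tested. At that threshold, 3 of 9 monocyte, 2 of 10 lipid-associated macrophage, 7 of 7 T and NK cell, 1 of 8 B and plasma cell, 1 of 3 neutrophil, 3 of 11 stellate and 1 of 6 cholangiocyte genes were lower, and 0 genes of the dendritic, endothelial, hepatocyte and red cell lists. Without library E the counts under that threshold that moved were 4 of 9 monocyte, 3 of 8 B and plasma cell, 6 of 11 stellate, 1 of 10 endothelial and 1 of 5 dendritic cell genes. Without library H they were 2 of 9 monocyte, 3 of 7 T and NK cell and 2 of 11 stellate genes. DESeq2 called 1 gene of all these lists (0.816% of all genes), Gpnmb of the lipid-associated macrophage list, and 0 of that list without library H, and edgeR called 0. Monocyte genes were lower in 8 of 9 tested (median log2 fold change -0.56), among them the chemokine receptor gene Ccr2 at 70.1 ± 21.6 and 38.2 ± 10.8 normalized counts (adjusted p = 0.292 by limma), with Plac8 at -0.23 (0.650) and Fn1, which hepatocytes also make, at 0.11 (0.859). Lipid-associated macrophage genes had a median of -0.13, with 5 of 10 lower, Lgals3 at -0.57 (adjusted p = 0.373 by limma), Spp1 at -0.31 (0.593) and Lpl at -0.35 (0.611). T and NK cell genes were lower in 7 of 7 tested of 11 (median -1.41), at summed levels of 122 to 314 normalized counts in sgRosa26 and 59.0 to 203 in sgCcnd1. B and plasma cell genes were lower in 8 of 8 (median -0.45), with Ighm at -0.093 (adjusted p = 0.941 by limma) and Jchain at -0.046 (0.976). Their summed level was 1226 to 2907 normalized counts in sgRosa26 and 985 to 3039 in sgCcnd1.

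Neutrophil genes were tested in 3 of 8 cases (median -0.59, Csf3r at -0.59, adjusted p = 0.253 by limma), and the neutrophil marker Ly6g was at 0 in 8 of 9 libraries. Dendritic cell genes had a median of -0.36 over 5 tested of 8, with Clec9a at -0.078 (adjusted p = 0.872 by limma). Stellate and fibroblast genes had a median of -0.27, with 10 of 11 lower, Pdgfrb at -0.50 (adjusted p = 0.333 by limma), Col3a1 at -0.58 (0.354) and Col1a1 at -0.76 (0.399). The median was -0.063 for 10 sinusoidal endothelial genes tested (8 of 10 lower, against 10 of 10 without E and 6 of 10 without H). Stab1 is given above, and Lyve1 was at -0.38 and Eng at -0.21 (adjusted p = 0.584 and 0.621 by limma). For 6 cholangiocyte genes the median was -0.053 (Sox9 at -0.51 and Pkhd1 at 0.17, adjusted p = 0.346 and 0.797 by limma). For 5 red cell genes it was -0.026 (Alas2 at 0.15, Hbb-bs at -0.11 and Hba-a2 at 0.13, adjusted p = 0.755, 0.931 and 0.950 by limma). Hepatocyte genes had a median of 0.068 over 10, with Cps1 at 0.40 (adjusted p = 0.510 by limma) and Hnf4a at 0.14 (0.621). The part of these other cells in the values of the 8 markers was not tested.

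The genes whose level over the 9 libraries was most like the mean log2 level of the 8 markers were ranked among 10343 others whose mean reached 50 normalized counts. The first 10 were Acp1 (Pearson's r = 0.95), Cyp2a12 (0.94), Nipsnap3b (0.90), Slc27a2 (0.89), Luc7l3 (0.88), Dclre1c (0.88), Trub1 (0.88), Clns1a (0.88), Tcf25 (0.86) and Dnajb14 (0.86). Cyp2a12 and Slc27a2 are hepatocyte genes. This mean followed Marco (r = 0.86) and Timd4 (0.85), the markers with the widest spread, and not Clec4f (-0.088) or Vsig4 (-0.080). Each marker is itself part of the mean, and the widest spread weighs most in it, so these r values are no independent evidence. After each marker was scaled to the same spread, a choice made after the data were seen, Prickle3 (r = 0.96) came first and Cfp second (0.94). Cfp encodes properdin, a positive regulator of complement that macrophages make, and belongs to the list of other Kupffer cell genes. Its level was 207 ± 51.5 and 201 ± 32.6 normalized counts (log2 fold change -0.025, adjusted p = 0.969 by limma). These r values describe 9 libraries and were the highest of many, so no p is given.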

How the data were processed

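The authors deposited a table of normalized counts, a never-negative expression signal, for poly(A) RNA-seq of 9 livers. Per the submitters' processing notes, the tools included Trim Galore 0.6.7, HISAT2 2.2.1, featureCounts 2.0.3 and DESeq2 2.11.40.8 with builds mm10 and GRCm38. Use of strand is not given in the sources used here, so genes that overlap may share reads. Columns name a guide target beside a number that no label holds, and were matched to a group only. Titles describe each library as a mouse. Every library's values came out whole (100% within 0.05 reads) after division by the value of a single read, so reads could be recovered.

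From the deposited signal, log2(normalized count + 1) was tested with limma 3.58.1 (R 4.3.3, eBayes with trend, two-sided, no covariates) for 12993 genes (mean 10 or more). P-values were adjusted over all of these by Benjamini-Hochberg at a threshold of 0.05. Fold changes are on that scale and understate those of low genes. For single genes all 126 splits were enumerated (exact permutation, two-sided, smallest possible p = 0.00794). Correlations used exact permutations. Alternatives were quantile normalization, 75th-percentile rescaling, pseudocounts of 0.1 and 10, a minimum mean of 100 or none, array weights, robust eBayes, edgeR 4.0.16 (TMM, RLE) and DESeq2 1.42.0 on the recovered reads, and leaving out each library. On those reads edgeR called 1 gene. The procedures were tested on simulated counts.

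Members and lists were chosen with earlier results of these data known. Genes named beyond the 8 markers are the up to 3 with the smallest limma p of each list at a mean of at least 50, and the 10 most correlated with the mean of the markers. Ccnd1 is the targeted gene. Outside this rule, Ddx3y, Eif2s3y, Kdm5d and Uty were named after their values were seen. So were Fcna, Slc40a1, Nr1h3, Id3, Spic, Xlr, Bmp10, Ly6g, Cd68, Gpnmb, Cfp and Prickle3. Genes that are not reported here stay in the counts and medians. Lengths are exon unions of GENCODE M21 (GRCm38). Coordinates and promoters are from RefSeq (GRCm38.p6). Reads carry no molecular identifiers, so Poisson intervals cover counting error only. Plots used Python 3.11.15 and matplotlib 3.10.9.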

Additional observations from a re-analysis of the deposited data

Results flagged for a closer look

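Of 102 groups of values examined for a library far from the rest, 12 had one, where chance gives about 5.1. Among the resident markers there were 3, all in sgCcnd1. Library E had 334 normalized counts of Vsig4 against 211 to 237 in the other 4 libraries of its group, and 29.7 of Cd163 against 80.0 to 95.0. Library H had 117 normalized counts of Timd4 against 36.9 to 43.5.

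Library E was also far from its group in the mean log2 level of the pan-macrophage genes, at 7.79 against 7.48 to 7.54. The same library was high in Laptm5 (322 normalized counts against 214 to 234), Dmpk (360 against 310 to 324), Axl (419 against 280 to 311), Col3a1 (515 against 273 to 341) and Col1a1 (242 against 99.9 to 138). Among the controls, library B was high in Laptm5 (421 normalized counts against 340 to 348) and in Ighm (2433 against 970 to 1215), and library A in Pkhd1 (173 against 103 to 110).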

How the results depend on the processing

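No paired analysis was possible because no column of the table is numbered by replicate. Running edgeR and DESeq2 without H was decided after seeing the data. In all alternatives that gave a value, 0 of the 8 markers passed the adjusted threshold. A minimum mean of 100 leaves out Cd163 and Timd4. Vsig4 stayed below 0 (-0.36 to -0.19) and Cd163 above 0 (0.42 to 0.94), and the other 6 markers crossed 0. Leaving out a library gave log2 fold changes of -0.14 to 0.076 for Clec4f, -0.14 to 0.086 for Cd5l, -0.20 to 0.36 for Timd4, -0.46 to 0.84 for Marco, -0.16 to 0.14 for Folr2 and -0.16 to 0.12 for Adgre1. The sign turned with quantile normalization for Folr2 (0.050) and with the 75th percentile for Adgre1 (-0.019). Without H it turned with edgeR for Timd4 (-0.29), Marco (-0.15), Folr2 (0.019) and Adgre1 (-0.16), and with DESeq2 for Clec4f (0.0017), Timd4 (-0.29), Marco (-0.12), Folr2 (0.023) and Adgre1 (-0.16). The mean over the markers ranged from -0.059 to 0.16 with single libraries left out.

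Ccnd1 was at -1.02 by edgeR without H (adjusted p = 0.0560) and from -1.11 to -0.96 with 1 library left out, where it missed the threshold without B, D, F, H or I. Genes lower in sgCcnd1 numbered 1 by limma, 2 after quantile normalization, 70 by DESeq2 (24 without H), 0 by edgeR without H and 0 to 2 without single libraries. Genes higher numbered 0 by limma (678 at an unadjusted p under 0.05) and 34 by DESeq2 (16 without H). The pan-macrophage median stayed between -0.48 and -0.36, and that of the other Kupffer cell genes between -0.21 and -0.052.

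Genes near 0 turned sign as well: Ighm (0.0028) and Jchain (0.12) with array weights, Ighm without H (0.0076 by edgeR, 0.0078 by DESeq2), Hbb-bs without H (0.056 and 0.068), and Hba-a2 with edgeR (-0.17 with TMM, -0.16 with RLE) and DESeq2 (-0.14). Without single libraries Ighm ranged from -0.36 to 0.20, Jchain from -0.44 to 0.33, Hbb-bs from -0.29 to 0.16, Hba-a2 from -0.43 to 0.68, Alas2 from -0.050 to 0.25 and Fn1 from -0.056 to 0.27. The cause was not tested. Marco, Timd4 and Cd163 have the widest intervals. Counting error is largest for Marco in library E, at 12 reads in the deepest library.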
